A study of Gallus gallus with 8 samples.

Results

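Nuclear-encoded components of the respiratory chain and ATP synthase were followed in the liver of broiler chickens (Gallus gallus) kept at either of 2 stocking densities. Members were the rows of the authors' deposited table whose gene name begins with NDUF, SDHA to SDHD, SDHAF, UQCR, UQCC, COX and a digit, or ATP5, leaving out chromosomes MT and W and rows without a value. The name pattern found 85 rows. One of them, COX3, lies on the mitochondrial chromosome, which left 84 members among the 20170 genes with a result. All 84 had a deposited group mean of at least 1, the lowest being 1.71.

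The birds were labelled male and their livers were taken on day 46. At the end of the trial the intended density was 24.4 kg/m2 (5 lb/ft2) for low density, treatment A, and 39.1 kg/m2 (8 lb/ft2) for high density, treatment D. Each treatment was measured by RNA sequencing of 4 libraries. Each library was a pool of RNA from 4 birds of 1 treatment, so each group stands for 16 birds and the spread between single birds was not measured. The labels give no further treatment and no intermediate density was analysed here. The title of the series frames the comparison as one of a hepatic response to density.

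The respiratory chain passes electrons from NADH (at complex I) and succinate (at complex II, which is also an enzyme of the citric acid cycle) through coenzyme Q, complex III and cytochrome c to oxygen at complex IV. Complexes I, III and IV pump protons, and complex V, the ATP synthase, uses the proton gradient to form ATP. Most of the subunits are encoded in the nucleus, translated in the cytosol and imported, while a small core is encoded by mitochondrial DNA. Hepatocytes are rich in mitochondria and rely on this system for glucose production, uric acid synthesis and lipid metabolism. Assembly factors are proteins that help to build a complex but are not part of the finished enzyme.

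The values are those of the authors' comparison of treatment D with treatment A. A log2 fold change below 0 is lower at high density, and a call here means a deposited adjusted p under 0.05. The file holds 0 columns of values per library, so no value per pool, SD or overlap between groups can be given and the depth of each library is unknown. The error printed beside a log2 fold change is an implied standard error (SE), obtained from the deposited change and its two-sided p through the normal distribution, on the assumption of a Wald test that the table does not state. Among the 84 members it ran from 0.12 to 0.29, with a median of 0.15. The file names no unit for its group mean, the higher of both groups' means, so it is given only as deposited and ranks no gene against another. All 14 listed hepatocyte markers had a result, and the authors' deposited table lists albumin (ALB) at 36025.

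Respiratory chain genes were lower at high density by small amounts, and no single one passed the test. Of the 84 members, 76 had a log2 fold change below 0 and 8 above it, where 52.2% of the 10867 genes whose mean reached 1 were below 0. Their median log2 fold change was -0.17 (quartiles -0.27 and -0.07), a 1.12-fold difference, against a median of -0.01 (quartiles -0.11 and 0.08) over those 10867 genes. None of the 84 was called, where 0.273% of all genes with a result and 0.396% of those with a mean of at least 1 were. For the test behind the deposited p-values, no name was given in the sources used here. An unadjusted p under 0.05 was found for 14 members, all of them lower, where 3.94% of the genes whose mean reached 1 were lower and 2.48% higher at that p. The differences ran from -0.71 to 0.24. A log2 fold change of -0.2 or below was found in 36 members (42.9%) against 13.0% of genes whose mean reached 1, and one of -0.5 or below in 5 members (5.95%) against 2.32%.

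**Figure D1:**
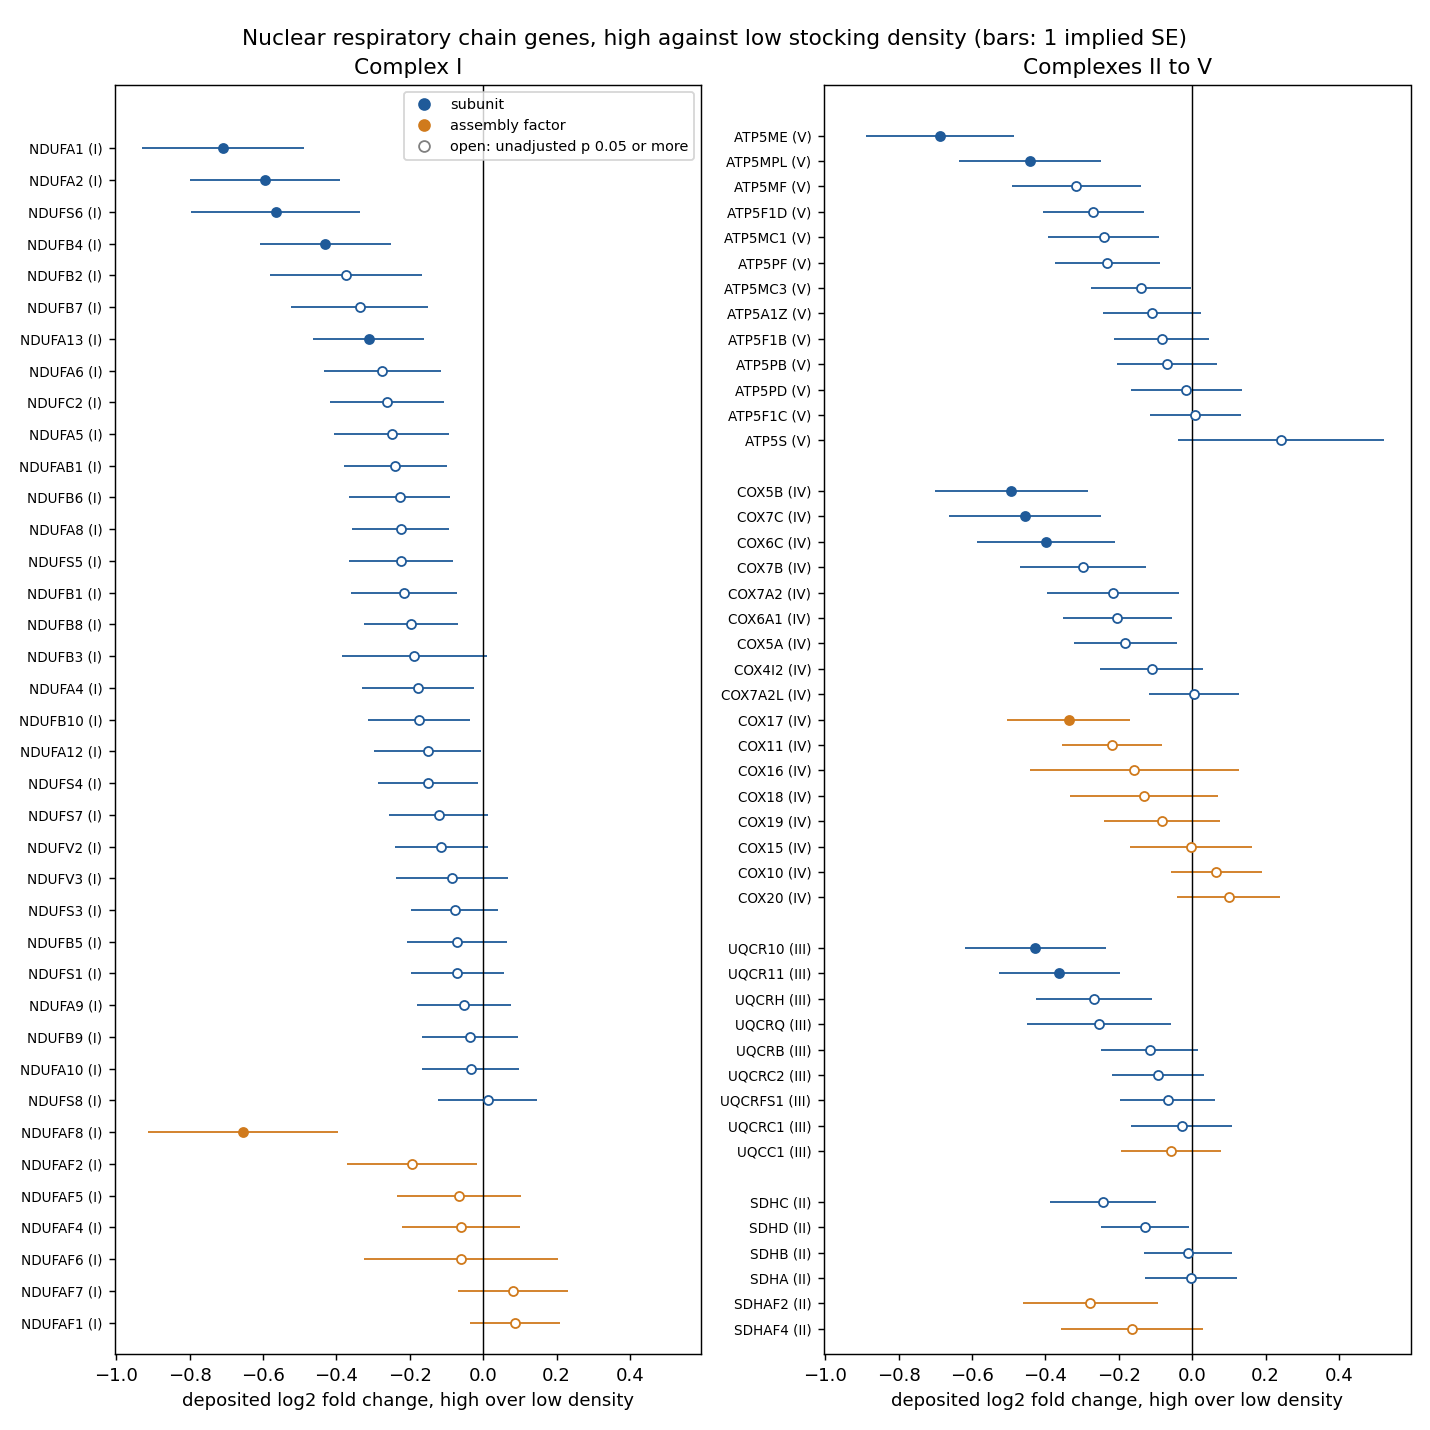
Deposited log2 fold change of high over low density (horizontal axis, below 0 is lower at high density) for 83 of the 84 members, complex I on the left and complexes II to V on the right. Points are subunits (blue) or assembly factors (orange), filled where the unadjusted p was under 0.05, and bars are 1 implied standard error; 75 of the 83 points lie left of 0, and the 14 filled points are all on that side.

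Complex I takes electrons from NADH. Its core subunits, conserved from bacteria, carry the iron-sulfur clusters and form the quinone site. The 6 analysed here stood near 0, with 5 of 6 below it and a median log2 fold change of -0.07. NDUFS8, an iron-sulfur protein, had a deposited log2 fold change of 0.01 (implied SE 0.13) and NDUFS1, the largest core subunit, one of -0.07 (0.13) by the authors' deposited table. NDUFS3 (-0.08, implied SE 0.12), NDUFV2 (-0.11, 0.13) and NDUFS7 (-0.12, 0.14) stood beside them in the authors' deposited table. Each of the 6 core values, from -0.12 to 0.01, lay within 1 implied SE of 0. NDUFV1 was not analysed here.

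Accessory subunits of complex I surround the core and are needed for its stability. The 26 analysed here were all below 0, with a median log2 fold change of -0.22 and a range of -0.71 to -0.03. NDUFA1, a small membrane-anchored subunit that is essential for assembly, had the most negative value of all members. It is ENSGALG00000008613 on GRCg6a chromosome 4, 16492920 to 16494113, minus strand, with a deposited mean of 20.5 in the group with the higher mean. Its log2 fold change was -0.71, a 1.64-fold difference (implied SE 0.22, approximate 95% interval -1.14 to -0.28, p = 0.00133 and adjusted p = 0.232, from the authors' deposited table). NDUFA2, a thioredoxin-fold subunit of the NADH-oxidising arm (chromosome 13, 1603439 to 1604914), stood at -0.59 (implied SE 0.20, p = 0.00358, adjusted p = 0.407, from the authors' deposited table). NDUFS6, the zinc-binding subunit of the same arm (chromosome 2, 85983022 to 85987033), stood at -0.56 (implied SE 0.23, p = 0.0143, adjusted p = 0.735, from the authors' deposited table).

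A pair of other accessory subunits had an unadjusted p under 0.05. NDUFB4, of the membrane arm, stood at -0.43 (implied SE 0.18, p = 0.0165 and adjusted p = 0.752), and NDUFA13, first described as a cell death protein, at -0.31 (implied SE 0.15, p = 0.0388 and adjusted p = 1.00), both by the authors' deposited table. The NDUFA13 model overlaps an unnamed model on its own strand, whose deposited mean was 0.121. The numbered NDUFA genes (10 of 10 lower, median -0.24) and the NDUFB genes of the membrane arm (10 of 10, median -0.21) differed little as sets, while the 8 NDUFS genes had a median of -0.10. Accessory subunits closest to 0 were NDUFA10 (-0.03), NDUFB9 (-0.04) and NDUFA9 (-0.05) in the authors' deposited table, each within 1 implied SE of 0. NDUFA4 (-0.18, implied SE 0.15 in the authors' deposited table) is counted here by its name, although its product is now placed in complex IV.

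The 7 assembly factors of complex I were split, 5 below and 2 above 0 with a median of -0.06. NDUFAF8, a small partner of NDUFAF5, stood apart from the rest at -0.65 (implied SE 0.26, p = 0.0115, adjusted p = 0.709, from the authors' deposited table). Its gene model, on chromosome 18 from 9254816 to 9255426, spans 611 bases and is the shortest of all members. NDUFAF5, the arginine hydroxylase with which it works, stood at -0.07 (implied SE 0.17) in the authors' deposited table. NDUFAF1 (0.09, implied SE 0.12), a member of the core assembly intermediate, and NDUFAF7 (0.08, 0.15), a methyltransferase, were the most positive members of complex I in the authors' deposited table. Both gene models overlap a neighbour on the other strand.

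Complex II, succinate dehydrogenase, is encoded wholly in the nucleus. Its 2 catalytic subunits had values near 0. SDHA, the flavoprotein, had a deposited log2 fold change of -0.003 (implied SE 0.13, approximate 95% interval -0.25 to 0.24) and SDHB, the iron-sulfur protein, one of -0.01 (implied SE 0.12, -0.25 to 0.22) by the authors' deposited table. The 2 membrane anchors lay lower, SDHC at -0.24 (implied SE 0.15) and SDHD at -0.13 (0.12) in the authors' deposited table. The assembly factors SDHAF2, which attaches the flavin to SDHA (-0.28, implied SE 0.18), and SDHAF4, which binds flavinated SDHA (-0.16, 0.19), were the remaining members in the authors' deposited table. All 6 values were below 0 with a median of -0.15, and none had an unadjusted p under 0.05.

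In complex III, ubiquinol-cytochrome c reductase, all 9 members were below 0 with a median of -0.12. The large structural core proteins UQCRC1 (-0.03, implied SE 0.14) and UQCRC2 (-0.09, 0.13) and the Rieske iron-sulfur protein UQCRFS1 (-0.07, 0.13) were within 1 implied SE of 0 in the authors' deposited table. The 5 small subunits had a median of -0.27. Among them UQCR10 stood at -0.43 (implied SE 0.19, p = 0.0258, adjusted p = 0.894) and UQCR11 at -0.36 (0.16, p = 0.0275, adjusted p = 0.913) in the authors' deposited table. UQCRH, the acidic hinge protein, had a value of -0.27 (implied SE 0.16), UQCRQ of -0.25 (0.20) and UQCRB of -0.12 (0.13) in the authors' deposited table. The assembly factor UQCC1, needed for cytochrome b, stood at -0.06 (implied SE 0.14) in the authors' deposited table.

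Complex IV, cytochrome c oxidase, has its catalytic core in mitochondrial DNA, so its nuclear subunits are all supernumerary. Of the 9 analysed here 8 were below 0, with a median of -0.22. COX5B, the zinc-binding subunit on the matrix side (chromosome 22, 4031597 to 4032286), stood at -0.49 (implied SE 0.21, p = 0.0186, adjusted p = 0.795, from the authors' deposited table). Its model overlaps an unnamed antisense model with a deposited mean of 2.32. COX7C (-0.46, implied SE 0.21, adjusted p = 0.914) and COX6C (-0.40, 0.19, adjusted p = 0.96), both small single-pass membrane subunits, had an unadjusted p of 0.0279 and of 0.034 by the authors' deposited table. The COX7B (-0.30), COX7A2 (-0.22), COX6A1 (-0.20) and COX5A (-0.18) values of the authors' deposited table lay between. The row named COX4I2 had a value of -0.11 (implied SE 0.14) in the authors' deposited table, and RefSeq lists that name as a synonym of COX4I1, the widely expressed isoform. COX7A2L, which joins complexes III and IV into supercomplexes, stood at 0.006 (implied SE 0.12) in the authors' deposited table.

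Assembly factors of complex IV were lower in 6 of 8 cases, with a median of -0.11. COX17, the copper chaperone of the intermembrane space, was the one with an unadjusted p under 0.05, at -0.34 (implied SE 0.17, p = 0.0457, adjusted p = 1.00, from the authors' deposited table). The copper carrier COX11 had a value of -0.22 (implied SE 0.14) and COX19, linked to the same copper route, one of -0.08 (0.16) by the authors' deposited table. The haem A enzymes were near 0, with COX10 at 0.07 (implied SE 0.12) and COX15 at -0.004 (0.17) in the authors' deposited table. COX20, a chaperone of the mitochondrially encoded subunit COX2, had the most positive value at 0.10 (implied SE 0.14) in the authors' deposited table. COX16 (-0.16, implied SE 0.29) and COX18 (-0.13, 0.20) had wider errors and deposited means of 1.73 and 3.24 in the authors' deposited table.

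Complex V differed by part. The 4 members in the catalytic F1 head had a median of -0.10. ATP5F1C, the central shaft, stood at 0.008 (implied SE 0.12) and ATP5F1B, the catalytic beta subunit, at -0.08 (0.13) in the authors' deposited table. The row named ATP5A1Z, the alpha subunit on chromosome Z, stood at -0.11 (implied SE 0.13) in the authors' deposited table. ATP5F1D, the delta subunit of the rotor, was lower than these at -0.27 (implied SE 0.14, p = 0.0519, adjusted p = 1.00, from the authors' deposited table). The 3 members in the peripheral stalk had a median of -0.07, with ATP5PF (-0.23) the lowest and ATP5PD (-0.02) the highest in the authors' deposited table. The ATP5F1B and ATP5PB models each overlap another gene on their own strand. All 3 stalk models overlap another model, those of ATP5PF and ATP5PD on the other strand only.

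The 5 members in the membrane part of complex V had a median of -0.32, and all were below 0. Only genes whose names fitted the rule are counted in these parts, which need not be complete. ATP5ME, the small e subunit that lies where ATP synthase dimers meet (ENSGALG00000015372, chromosome Z, 53568962 to 53570888), had the smallest p of all members. Its log2 fold change was -0.69, a 1.61-fold difference (implied SE 0.20, approximate 95% interval -1.08 to -0.29, p = 0.000671, adjusted p = 0.154, from the authors' deposited table). ATP5MPL, a proteolipid associated with the same region, stood at -0.44 (implied SE 0.19, p = 0.0216, adjusted p = 0.832), and ATP5MF, the f subunit, at -0.32 (0.18, p = 0.0732) in the authors' deposited table. The genes ATP5MC1 (-0.24, implied SE 0.15) and ATP5MC3 (-0.14, 0.14), which encode the same mature c subunit of the rotor ring, had the smallest differences of this part in the authors' deposited table. ATP5S, a coupling factor that is not a structural subunit, had the most positive value of all members, 0.24, with an implied SE of 0.28 and a deposited mean of 1.71 in the authors' deposited table. Its model overlaps that of CDKL1 on the other strand, which had a log2 fold change of 0.21 and a deposited mean of 1.31.

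Core subunits lay nearer 0 than accessory ones in complexes I and III. In complex III, core here means UQCRC1, UQCRC2 and UQCRFS1, so the word does not cover the same kind of subunit in each complex. In complex V the peripheral stalk (median -0.07) and F1 head (-0.10) differed by less than any of their members' implied SEs. Complex II has no accessory and complex IV no nuclear core subunits here. The 17 core subunits, here those of complexes I and III, all 4 of complex II and the F1 head, had a median log2 fold change of -0.08, with 15 of 17 below 0 and 0 at an unadjusted p under 0.05. The other 49 subunits had a median of -0.23, with 47 below 0 and 12 at an unadjusted p under 0.05. The 18 assembly factors had a median of -0.07, with 14 below 0 and 2, NDUFAF8 and COX17, at that p. By complex the medians were -0.18 for I, -0.15 for II, -0.12 for III, -0.18 for IV and -0.14 for V. In all, 18 members share bases with another gene model, 3 of them on the same strand, and whether counting used strand was not stated. Without these 18 the median was -0.18 for complex III and -0.26 for complex V. All 3 stalk members of complex V are among the 18. These are descriptions of the members, and the differences between the sets were not tested, since a test needs values per library.

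**Figure D2:**
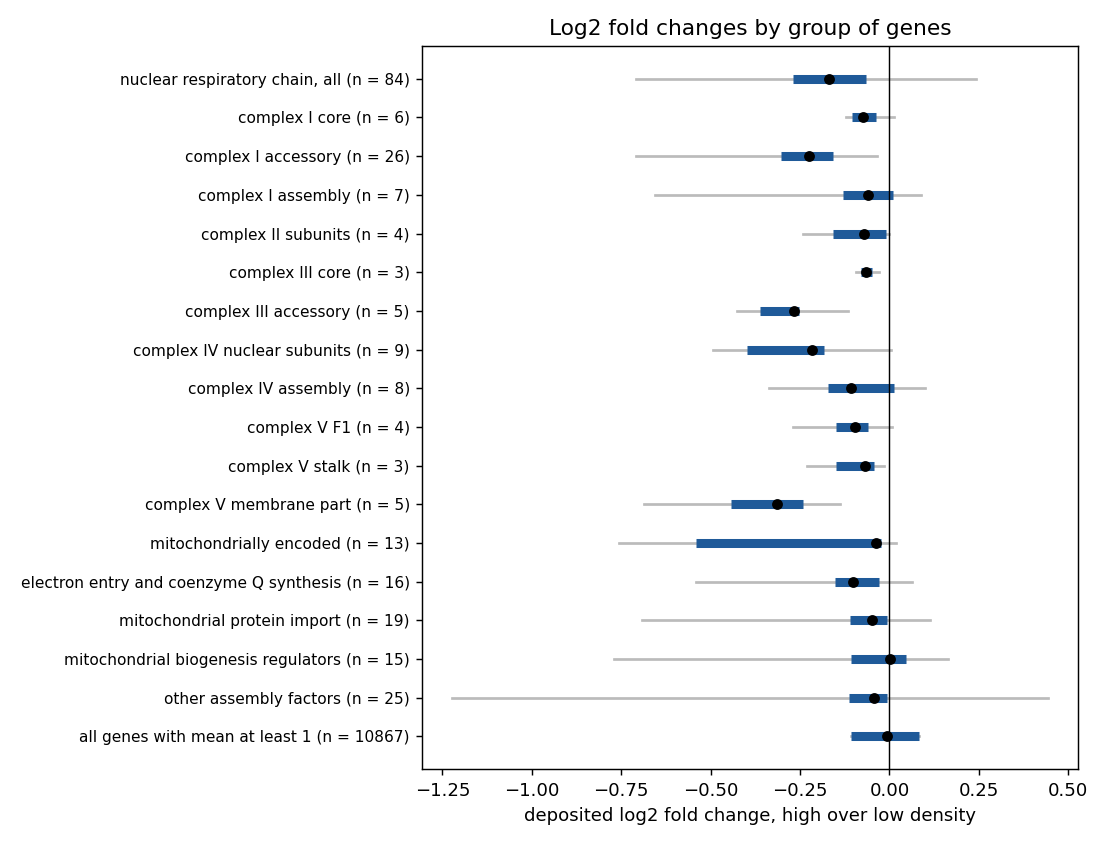
Deposited log2 fold change of high over low density (horizontal axis) for parts of the respiratory chain and for other mitochondrial gene lists, with the number of genes in each. Black points are medians, thick bars quartiles and thin lines the full range (not drawn for the 10867 genes whose mean reached 1); the accessory subunits of complexes I and III and the membrane part of complex V have medians of -0.22, -0.27 and -0.32, against -0.07 for the cores of complexes I and III.

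Over the 84 members the log2 fold change was closer to 0 in longer gene models (correlation of the signed value with span, Spearman's rho = 0.62, Pearson's r = 0.54 with log10 span, across genes that share the same libraries and are not independent replicates), and within the 32 complex I subunits rho was 0.56. The 19 members with a span of at most 2000 bases had a median of -0.32 and included 9 of the 14 with an unadjusted p under 0.05. Of the 653 other genes in that range, 85 were lower and 26 higher at that p. The 33 members over 2000 and up to 5000 bases had a median of -0.19, the 19 up to 10000 bases one of -0.09 and the 6 up to 20000 bases one of -0.08. The 5 members up to 50000 bases had a median of -0.15, and the 2 longer ones, UQCC1 and COX10, one of 0.003. Other genes whose mean reached 1 had medians of -0.11, -0.03, -0.003 and 0.02 in the 4 ranges up to 20000 bases, then 0.003 up to 50000 bases and -0.02 beyond. Over all spans rho was 0.06 in these 10783 genes. Up to 20000 bases rho was 0.62 over 77 members and 0.16 over 6845 other genes. The members' median was below that of the other genes in every range but the longest, which held 2 members. Among genes whose mean reached 10 and whose span did not exceed 5000 bases, 67.9% of 993 other genes were below 0 with a median of -0.07, and 97.9% of 48 members with a median of -0.23. Span is the distance on the chromosome with introns included, so genes of 1 range need not have transcripts of like length. Transcript lengths were not used, and the part of gene span in the members' values was not tested.

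Among members of at most 5000 bases the 7 core subunits had a median of -0.08, the 37 other subunits one of -0.24 and the 8 assembly factors one of -0.15. Their median spans still differed, at 3428, 2499 and 2408 bases. NDUFS8 spans 1656 bases and had a value of 0.01 (implied SE 0.13), the 1 value above 0 among the 19 members up to 2000 bases. Its neighbour SDHAF2, 188 kb away on chromosome 5 with a span of 1689 bases, had -0.28 (0.18) in the authors' deposited table. The approximate 95% intervals of NDUFS8 (-0.25 to 0.27) and SDHAF2 (-0.64 to 0.08) overlap. The SDHAF2 model overlaps that of CPSF7 on the other strand. On chromosome 2, SDHA and NDUFS6 lie 304 kb apart with values of -0.003 and -0.56 by the authors' deposited table. Their spans also differ, at 15961 and 4012 bases. NDUFB4 and COX17, 333 kb apart on chromosome 1, stood at -0.43 and -0.34 by the authors' deposited table. These pairs are examples, and other neighbouring members are not listed.

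**Figure D3:**
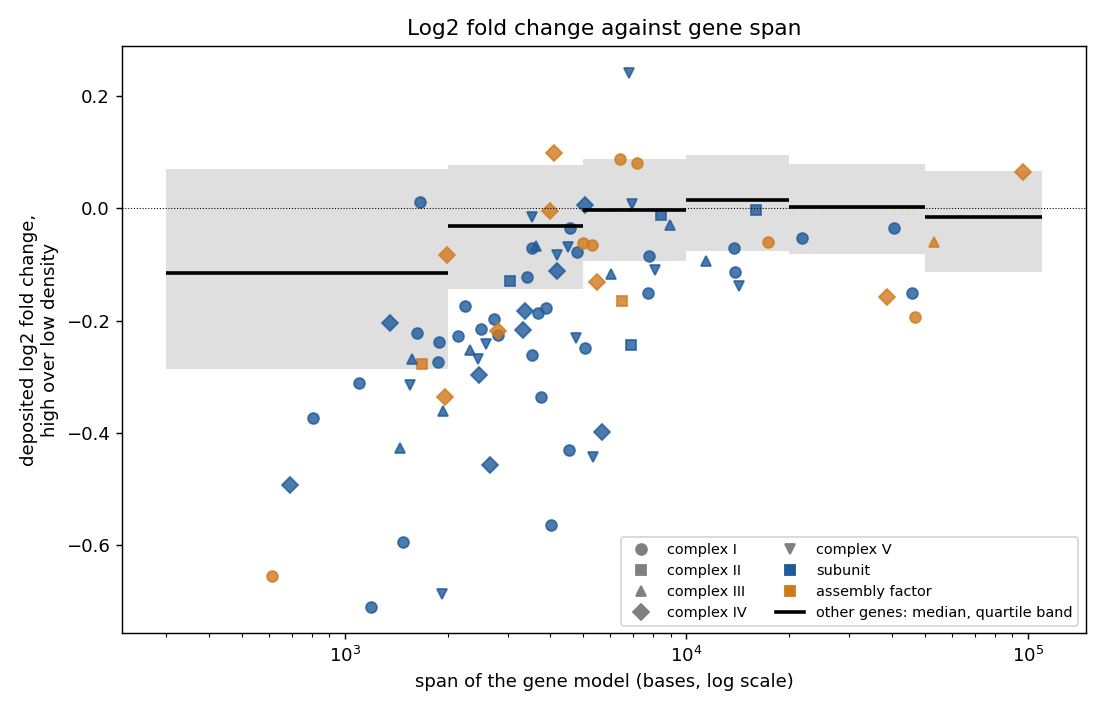
Deposited log2 fold change of high over low density (vertical axis) against the span of the gene model in bases (horizontal axis, log scale) for 83 of the 84 members, with marker shape for the complex and colour for subunit (blue) or assembly factor (orange). Black lines and grey bands are the median and quartiles of the other genes whose mean reached 1 in 6 span ranges; members of at most 2000 bases have a median of -0.32, and the other genes of that range one of -0.11.

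Other mitochondrial genes gave a mixed picture. Of the 13 mitochondrially encoded protein genes 10 were below 0 with a median of -0.04 and 0 called, and the 4 with an unadjusted p under 0.05 were the 4 under 600 bases, whose median was -0.65. The 9 longer ones had a median of -0.04. Short and long models that overlap differed. ATP8, of 165 bases, stood at -0.76 and ATP6, which overlaps it, at -0.04 in the authors' deposited table. ND4L, of 297 bases, stood at -0.66 and ND4, which overlaps it, at 0.02 in the authors' deposited table. The part of model length in these values was not tested. Of 5 other nuclear subunits and partners of the chain, 4 were below 0 (median -0.03), with the smallest p for CHCHD2 at -0.24 (implied SE 0.14, p = 0.0966 in the authors' deposited table). The electron carrier cytochrome c, CYCS, had a log2 fold change of -0.03 (p = 0.799 in the authors' deposited table). Of 25 assembly factors with other names, 1 of which (FOXRED1) is also among those 5, 20 were below 0 (median -0.04), and COA4 had the smallest p, with a value of -1.22 and a wide implied SE of 0.62 (p = 0.0499 in the authors' deposited table). Genes of electron entry and coenzyme Q synthesis were below 0 in 13 of 16 cases (median -0.10). COQ10B, a coenzyme Q binding protein, had a value of -0.54 (implied SE 0.23, adjusted p = 0.795, from the authors' deposited table).

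Mitochondrial protein import genes were below 0 in 14 of 19 cases with a median of -0.05. Of these, 3 had an unadjusted p under 0.05, all lower: the small chaperones of the intermembrane space TIMM10 (-0.69) and TIMM13 (-0.53) and the small outer membrane subunit TOMM6 (-0.52) in the authors' deposited table. Their gene models, of 559, 740 and 1023 bases, are the shortest of the 19. Regulators of mitochondrial gene expression and biogenesis were split, with 7 of 15 below 0 and a median of 0.001. PPARGC1A, the coactivator of mitochondrial biogenesis, stood at -0.77 (implied SE 0.26, p = 0.00337, adjusted p = 0.399, from the authors' deposited table), while NRF1 (0.15), GABPA (0.03) and TFAM (-0.10), the factors that act on nuclear and mitochondrial respiratory genes, had an unadjusted p of 0.412, 0.802 and 0.35 by the authors' deposited table. None of these lists held a called gene.

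Markers of other cell types were also read, and 1 of them passed the test, where 0.273% of all genes with a result did. In bulk liver, fewer cells of a type and less RNA per cell cannot be told apart. Hepatocyte markers had a median of 0.02, with 6 of 14 below 0 and 0 at an unadjusted p under 0.05. All 11 T and NK cell markers with a value were below 0 (median -0.43, deposited means 0.504 to 32.1), and 1 of them, GNLY, was called (log2 fold change -0.58, adjusted p = 0.0396, from the authors' deposited table). Erythroid markers were above 0 in 8 of 9 cases (median 0.43, deposited means up to 208) and heterophil markers in 9 of 10 (median 0.74, up to 11.2), with none called. SLC4A1, the red cell anion exchanger, stood at 0.67 (adjusted p = 0.267) and AvBD1, a heterophil defensin, at 0.99 (adjusted p = 0.304) in the authors' deposited table. At an unadjusted p under 0.05, 2 erythroid markers were higher and 1 lower, and 4 heterophil markers were higher and 1 lower. The lower ones were HBZ (-2.21, p = 0.0144, deposited mean 0.375) and LYZ (-1.43, p = 0.0106, deposited mean 2.93) in the authors' deposited table. Cholangiocyte (5 of 7 below 0, median -0.27), stellate and fibroblast (10 of 12, -0.21) and macrophage and endothelial markers (10 of 13, -0.07) also held none called. Of the muscle markers 9 had a value, with deposited means of at most 1.03 (3 below 0, median 0.14, none called), and MB was listed at 0. The part of cell composition in the members' values was not tested.

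Sex chromosomes bear on 5 members, ATP5A1Z, NDUFS4, NDUFAF2, ATP5ME and COX7C, which lie on Z, present in 2 copies in male birds. Their median log2 fold change was -0.19, against -0.16 for the 79 autosomal members. Over all genes whose mean reached 1 the medians were -0.02 for the 481 on Z and -0.01 for the 10362 on autosomes. The W chromosome, carried by females, had 8 genes with such a mean, although all birds are labelled male. All 8 were higher at high density, with a median of 0.87 and a median implied SE of 1.12. Of them 0 were called and 0 had an unadjusted p under 0.05. All 92 W genes with a result, with deposited means of 0.00226 to 8.95, included 70 higher and 22 lower (median 0.89). At an unadjusted p under 0.05, 8 of the 92 were higher and 2 lower, with 0 called. Over all 20170 genes with a result, 496 were higher and 630 lower at that p. Without the 5 members on Z, 71 of 79 members were below 0 and 12 had an unadjusted p under 0.05.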

How the data were processed

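Liver RNA of 8 pooled libraries, 4 per density, was sequenced on an Illumina HiSeq, per the labels' protocols. Per the submitters' processing notes, the build is GRCg6a. Aligner, counting method, normalization and test: not given in the sources used here. In a single comparison the authors deposited values for 23613 genes, with a log2 fold change of D over A, a p-value, adjusted p-values and the higher group mean, per the file headers. In 3443 genes every value was 0, and these were left out. The deposited adjustment is Benjamini-Hochberg over all 23613 rows (largest difference on recomputation 2.4e-05).

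The planned tests on values per library had no such values to use, so the authors' own p-values stand. Counts, medians, quartiles, spans (end minus start plus 1) and implied SEs were computed with Python 3.11.15, pandas 2.3.3 and SciPy 1.17.1, with the adjustment and SE code tested on simulated data. Span ranges ended at 2000, 5000, 10000, 20000 and 50000 bases. Members named are those with an unadjusted p under 0.05, the extremes of each complex, and catalytic subunits, and others were added to complete each group after their values were seen. UQCC1 was counted as an assembly factor and ATP5S and COX7A2L, by name, as subunits. One member, included in all counts and medians, is not reported by name here. Members and lists were chosen with earlier results of these data known. RefSeq (GRCg7b) matched 70 member names by symbol and 9 by synonym, and its coordinates were not used.

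The replicate numbers name pools, and depth and precision per library are unknown. Alternatives were a minimum mean of 1, no overlapping models, stricter membership, other centring and other adjustments.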

Additional observations from a re-analysis of the deposited data

How the results depend on the processing

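The count of members below 0 (76), their median (-0.17), the count at an unadjusted p under 0.05 (14) and the count called (0) kept their direction under every alternative that could be run. A minimum mean of 1 left all 84 members. Without the 18 members whose model overlaps another, 61 of 66 were below 0, with a median of -0.19 and 12 at that p, and the medians of complexes III and V went from -0.12 to -0.18 and from -0.14 to -0.26. Without NDUFA4 and ATP5S, 75 were below 0. After centring on genes whose mean reached 1, 74 were, with a median of -0.16. The count called was also 0 when adjusted over genes with a result (smallest adjusted p 0.131), after Bonferroni and at an adjusted p under 0.1.

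Alternatives chosen after the values were seen concern gene span and chromosome Z. With the 32 members spanning over 5000 bases, 26 were below 0 and 2 had an unadjusted p under 0.05, with a median of -0.08. Both counts moved by more than 1.5 times, in part because fewer members enter. The share at that p was also lower, since 12 of the 52 members up to 5000 bases had it. After subtracting the median of genes in the same span range, 73 of 84 were below 0 with a median of -0.15, and the medians of subunits and assembly factors were -0.15 and -0.07. Because span includes introns, this centring does not match genes by transcript length. In 33 planned comparisons of a result with its main value none moved by more than 1.5 times (counts) or by more than the median implied SE, 0.15 (medians). This limit is nearly as large as the members' median of -0.17, so it is a loose one. Some comparisons could not move at all, such as the minimum mean, which left all 84 members. No paired analysis was possible because the file holds no values per library. Leaving out a library and other normalizations or pseudocounts were not run, for want of the same values.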
